A study of Sus scrofa with 6 samples.

Results

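A set of 10 genes for the folding and cross-linking of collagen was followed in the longissimus dorsi muscle, a long muscle of the back, of UCP1 KI and WT pigs. They are the prolyl hydroxylase genes *P4HA1*, *P4HA2* and *P4HB*, the lysyl hydroxylase genes *PLOD1*, *PLOD2* and *PLOD3*, the chaperone gene *SERPINH1*, and the lysyl oxidase genes *LOX*, *LOXL1* and *LOXL2*. They were chosen by symbol and role from a table of read counts for 30476 Ensembl pig genes, and all 10 symbols had 1 identifier each. The UCP1 KI group (genotype UCP1-KI) was 3 pigs with an adipocyte-specific knock-in of *UCP1*, made with CRISPR/Cas9, and the WT group was 3 wild-type pigs. All 6 animals were 6 months old, with 1 RNA-seq library each and no treatment named in the labels. The knock-in is directed to adipocytes, whereas the tissue sampled is muscle, and the promoter, the number of founder clones and the kinship of the pigs are not given in the sources used here.

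Collagen chains are made in the endoplasmic reticulum (ER), where prolyl hydroxylases modify prolines so that the triple helix is stable at body temperature. The enzyme is a tetramer in which *P4HA1* or *P4HA2* gives the catalytic subunit and *P4HB*, which is also protein disulfide isomerase, gives the other. Lysyl hydroxylases, from the *PLOD* genes, modify lysines that later carry sugars and cross-links. *SERPINH1* encodes a chaperone that binds the folded procollagen helix and travels with it to the Golgi. Lysyl oxidases are secreted copper enzymes that oxidise lysines of collagen and elastin outside the cell, which starts their covalent cross-linking. In muscle these steps take place mostly in fibroblasts and other stromal cells, although *P4HB* serves protein folding in every secretory cell.

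The loci were found by symbol in RefSeq's annotation of Sscrofa11.1, the build that the submitters' processing notes name. *SERPINH1* (ENSSSCG00000039468) lies at 9782939 to 9794485 on chromosome 9 and *P4HB* (ENSSSCG00000039148) at 1121816 to 1131291 on chromosome 12. *P4HA1* (ENSSSCG00000010292) lies at 75827207 to 75919121 on chromosome 14, and *P4HA2* (ENSSSCG00000020915) at 134502210 to 134595444 on chromosome 2. *PLOD1* (ENSSSCG00000003433) spans 71987938 to 72019712 on chromosome 6, *PLOD2* (ENSSSCG00000011689) 86402673 to 86513167 on chromosome 13, and *PLOD3* (ENSSSCG00000028879) 8911787 to 8919525 on chromosome 3. *LOX* (ENSSSCG00000014232) spans 125595115 to 125607026 on chromosome 2, *LOXL1* (ENSSSCG00000001914) 59481410 to 59505161 on chromosome 7, and *LOXL2* (ENSSSCG00000033608) 7435861 to 7540699 on chromosome 14. Counts are per gene, so that exons and isoforms cannot be told apart.

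Of the 10 loci, 7 overlap another RefSeq locus, and whether the counting used strand is not given in the sources used here. *PDLIM4*, a cytoskeletal adaptor gene inside the *P4HA2* locus, was itself past the limits used below, with a log2 fold change of -1.20 and an unadjusted edgeR p of 0.00734. *NUDT13*, which overlaps *P4HA1*, and *ZNHIT1*, which overlaps *PLOD3*, had log2 fold changes of 0.09 and 0.10. The other overlapping loci were *SLC22A4*, measured at 0.135 CPM in UCP1 KI pigs and 0.273 CPM in WT pigs, and 4 loci that had no identifier in the count table. The part of these neighbours in the counts of *P4HA2*, *P4HB*, *SERPINH1*, *LOX* and *LOXL1* was not tested.

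The libraries held between 30220951 and 35066624 counts. Levels are given as counts per 1000000 (CPM), after scaling with the TMM factors of edgeR, which were lowest in WT replicate 2 (0.781) and highest in UCP1 KI replicate 2 (1.18). WT replicate 2 also had the highest share of counts in its 20 most abundant genes, 56.5% against 39.05% to 44.75% in the other pigs. The muscle fibre genes *ACTA1*, *CKM* and *DES* were high in every pig, with *ACTA1*, skeletal actin, between 30310 and 55970 CPM. *DES*, desmin, was at 7065, 9113 and 4616 CPM in UCP1 KI replicates 1 to 3 and at 5045, 3321 and 4226 CPM in WT replicates 1 to 3. Its log2 fold change of 0.72 missed a p limit of 0.05 in edgeR but passed it in both DESeq2 fits and with library size only. In bulk muscle, fewer stromal cells and less RNA per cell cannot be told apart. Log2 fold changes set UCP1 KI over WT, and a gene was called when it passed both limits, a log2 fold change beyond 0.5 in either direction and a p under 0.05 before adjustment. The p is from edgeR's quasi-likelihood test over 13402 genes. It sets the difference between the groups against the spread within them, for these 6 pigs only, and that spread is estimated with the help of all genes tested.

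*P4HB* was higher in UCP1 KI muscle by 1.65-fold, and *SERPINH1*, *P4HA1*, *PLOD1* and *PLOD3* were high in UCP1 KI replicates 1 and 2 and low in UCP1 KI replicate 3. Of the 10 genes, 9 had a higher point estimate in UCP1 KI pigs, where 48.7% of all genes tested had, and their median log2 fold change was 0.58 against -0.02 over all genes tested. *P4HB* alone passed both limits, so that 1 of 10 was called, in the higher direction, where 3.84% of all genes tested were called higher and 8.19% in either direction. For the other 9 genes the 95% interval of the log2 fold change held 0. With p adjusted by the Benjamini-Hochberg method across the whole table, 0 of the 10 genes were under 0.05 by edgeR (0.603 to 0.982), as were 0 of all 13402 genes tested (0%, smallest adjusted p 0.160). At an unadjusted p under 0.05 there was 1 of the 10, and 1100 of all genes tested (8.21%). DESeq2 on the same genes gave 0 of the 10 and 127 of all 13402 genes by the adjusted p. By the unadjusted p it gave 2 of the 10. Both also passed the fold change limit, where 9.77% of all genes tested passed both limits in that fit.

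**Figure D1:**
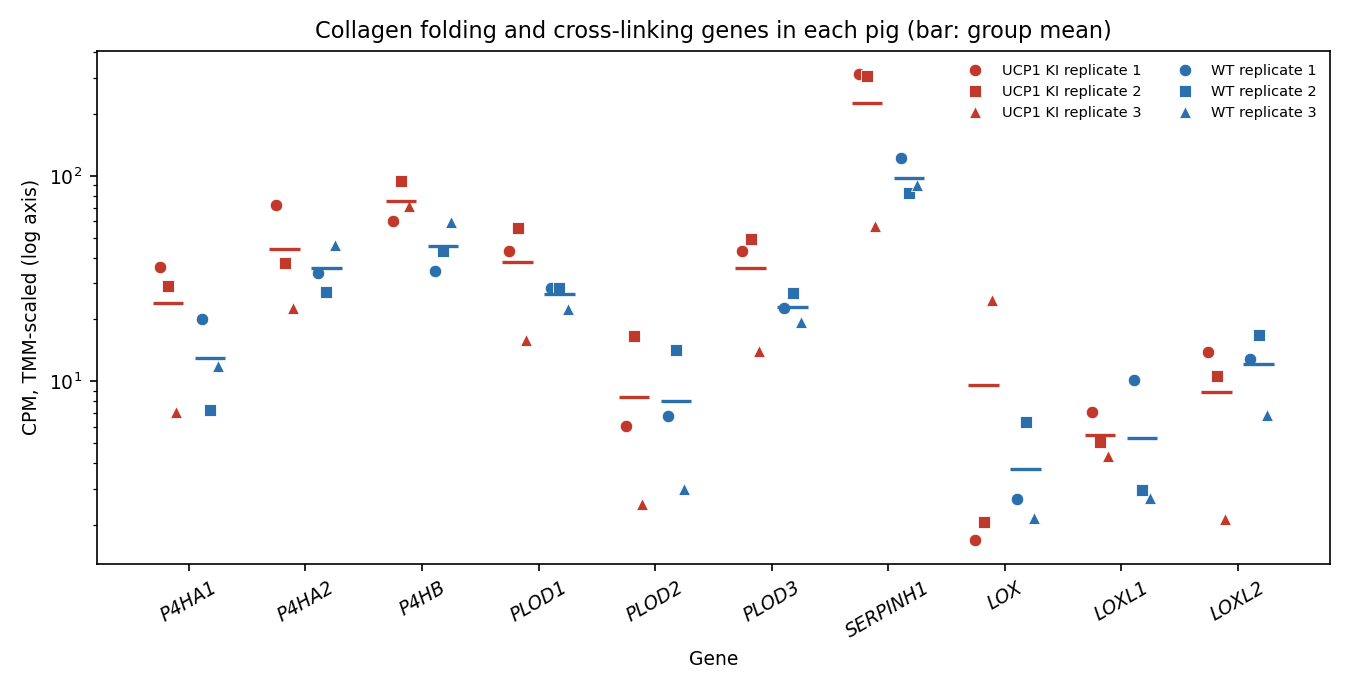
Level of each gene in each pig, in TMM-scaled CPM on a log axis, with UCP1 KI pigs in red and WT pigs in blue, a symbol for each replicate number and a bar at the group mean. *P4HB* is the gene without overlap between the groups, from 60.4 to 94.6 CPM against 34.3 to 59.9 CPM, and UCP1 KI replicate 3 (red triangle) is the lowest UCP1 KI pig for 8 of the 10 genes and the highest for *LOX*.

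*SERPINH1*, whose product has procollagen as its main client, was measured at 312.5, 304.8 and 57.0 CPM in UCP1 KI replicates 1 to 3. In WT replicates 1 to 3 it was at 121.8, 82.3 and 89.8 CPM. The first pair of UCP1 KI pigs thus lay far above every WT pig, and the third lay below every WT pig, so that the groups overlapped. UCP1 KI pigs had a mean of 225 ± 145 CPM (SD, n = 3), against 98.0 ± 21.0 CPM (SD, n = 3) for WT. This gave a log2 fold change of 1.20 (standard error 0.58, 95% interval -0.15 to 2.54), with an unadjusted p of 0.0737 and an adjusted p of 0.630 from edgeR. The exact permutation test on log2(CPM + 1), two-sided, gave p = 0.4, where 0.1 is the smallest p that 3 pigs against 3 allow. *SERPINH1* passed both limits with DESeq2 on the same genes (1.20, unadjusted p of 0.0381) and, in edgeR, without UCP1 KI replicate 3 (1.65, unadjusted p of 0.000896). It was weaker in edgeR without UCP1 KI replicate 1 (0.89, unadjusted p of 0.208) or 2 (0.92, 0.202) and in a fit blocked by replicate number (0.90, 0.152). Without 1 of the WT pigs it was 1.08 to 1.39, with unadjusted edgeR p values of 0.1027 to 0.1665.

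*P4HB*, protein disulfide isomerase and the common subunit of the prolyl hydroxylases, was measured at 60.4, 94.6 and 71.4 CPM in UCP1 KI replicates 1 to 3 and at 34.3, 42.9 and 59.9 CPM in WT replicates 1 to 3. Every UCP1 KI pig was above every WT pig, but UCP1 KI replicate 1 and WT replicate 3 nearly met. Its log2 fold change was 0.72 (standard error 0.29, 95% interval 0.04 to 1.41), with an unadjusted p of 0.0406 and an adjusted p of 0.603 from edgeR's test. The exact two-sided permutation test gave p = 0.1. It was the 1 gene of the 10 without overlap, where 7.59% of all genes tested were without overlap in this direction, 7.69% in the lower direction and 15.3% in either. The p limit was missed for *P4HB* when UCP1 KI replicate 2 (0.52) or 3 (0.76) was left out, and likewise WT replicate 1 (0.55) or 2 (0.68), with a higher point estimate each time.

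The catalytic subunits varied more between pigs. *P4HA1* was at 35.9, 29.0 and 7.13 CPM in UCP1 KI replicates 1 to 3 and at 20.01, 7.23 and 11.8 CPM in WT replicates 1 to 3. It followed *SERPINH1*, with the first pair of UCP1 KI pigs highest of all and UCP1 KI replicate 3 lowest of all. For *P4HA1* the log2 fold change was 0.88 (95% interval -0.52 to 2.28, adjusted edgeR p of 0.709), and it was 1.31 with an unadjusted edgeR p of 0.0210 without UCP1 KI replicate 3. Leaving out UCP1 KI replicate 1 gave 0.47 and leaving out WT replicate 2 gave 0.59, with unadjusted edgeR p values of 0.492 and 0.399, while leaving out WT replicate 1 gave 1.34. *P4HA2* was at 71.7, 37.5 and 22.7 CPM in UCP1 KI replicates 1 to 3 and at 33.8, 27.3 and 46.2 CPM in WT replicates 1 to 3. Here UCP1 KI replicate 1 stood out and the rest were mixed. For *P4HA2* the log2 fold change was 0.30 (95% interval -0.70 to 1.29, adjusted edgeR p of 0.866), and it turned to -0.25 without UCP1 KI replicate 1.

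Among the lysyl hydroxylases, *PLOD1*, which acts on lysines of the triple helix, was at 43.1, 55.7 and 16.0 CPM in UCP1 KI replicates 1 to 3 and at 28.4, 28.5 and 22.4 CPM in WT replicates 1 to 3. *PLOD3*, whose product also adds sugars to hydroxylysine, was at 43.1, 49.2 and 14.0 CPM against 22.7, 27.0 and 19.4 CPM. Both genes had the *SERPINH1* order, with UCP1 KI replicates 1 and 2 above and UCP1 KI replicate 3 below every WT pig. WT pigs were close together, the highest being 1.27 times the lowest for *PLOD1* and 1.39 times for *PLOD3*, where UCP1 KI pigs spanned 3.49 and 3.51 times. The log2 fold change was 0.53 for *PLOD1* (95% interval -0.46 to 1.52, adjusted edgeR p of 0.756) and 0.62 for *PLOD3* (95% interval -0.40 to 1.65, adjusted edgeR p of 0.719). Without UCP1 KI replicate 3 they were 0.90 and 0.999, with unadjusted edgeR p values of 0.0126 and 0.00722. Without UCP1 KI replicate 2 they were 0.16 and 0.31, with unadjusted edgeR p values of 0.732 and 0.542.

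*PLOD2*, the lysyl hydroxylase of the telopeptides at the ends of the chains, did not share this order. It was at 6.05, 16.6 and 2.52 CPM in UCP1 KI replicates 1 to 3 and at 6.75, 14.2 and 3.003 CPM in WT replicates 1 to 3. In each group replicate 2 was highest and replicate 3 lowest, and the groups covered nearly the same range. The log2 fold change of 0.07 (95% interval -1.66 to 1.81, adjusted edgeR p of 0.982) leaves room for large differences in either direction.

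*LOX*, the founding member of the lysyl oxidases, was high in a lone animal. It was at 1.68, 2.08 and 24.9 CPM in UCP1 KI replicates 1 to 3, from counts of 52, 74 and 941, and at 2.67, 6.36 and 2.17 CPM in WT replicates 1 to 3. UCP1 KI replicate 3 was thus 14.8 times the lowest UCP1 KI pig, while the other UCP1 KI pigs lay below every WT pig. The log2 fold change of 1.36 (95% interval -1.01 to 3.73, adjusted edgeR p of 0.732) turned to -0.99 (unadjusted edgeR p of 0.120) without UCP1 KI replicate 3. DESeq2, which sets aside genes with an outlying count, gave no p for *LOX*.

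*LOXL1*, a lysyl oxidase known for its part in elastic fibres, was at 7.08, 5.05 and 4.32 CPM in UCP1 KI replicates 1 to 3 and at 10.1, 2.96 and 2.70 CPM in WT replicates 1 to 3. The UCP1 KI pigs fell between WT replicate 1 and the other WT pigs. Its log2 fold change was 0.05 (95% interval -1.20 to 1.31, adjusted edgeR p of 0.982), and 0.95 with an unadjusted edgeR p of 0.0328 without WT replicate 1. *LOXL2*, which also acts on basement membrane collagen, was at 13.8, 10.6 and 2.15 CPM in UCP1 KI replicates 1 to 3 and at 12.9, 16.8 and 6.87 CPM in WT replicates 1 to 3. It was the 1 gene of the 10 with a lower point estimate, -0.46 (95% interval -1.93 to 1.01, adjusted edgeR p of 0.860), and UCP1 KI replicate 3 was again the lowest pig. Without that pig the log2 fold change of *LOXL2* was -0.0014, and it was -0.16 without WT replicate 2 and -0.93 without UCP1 KI replicate 1.

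**Figure D2:**
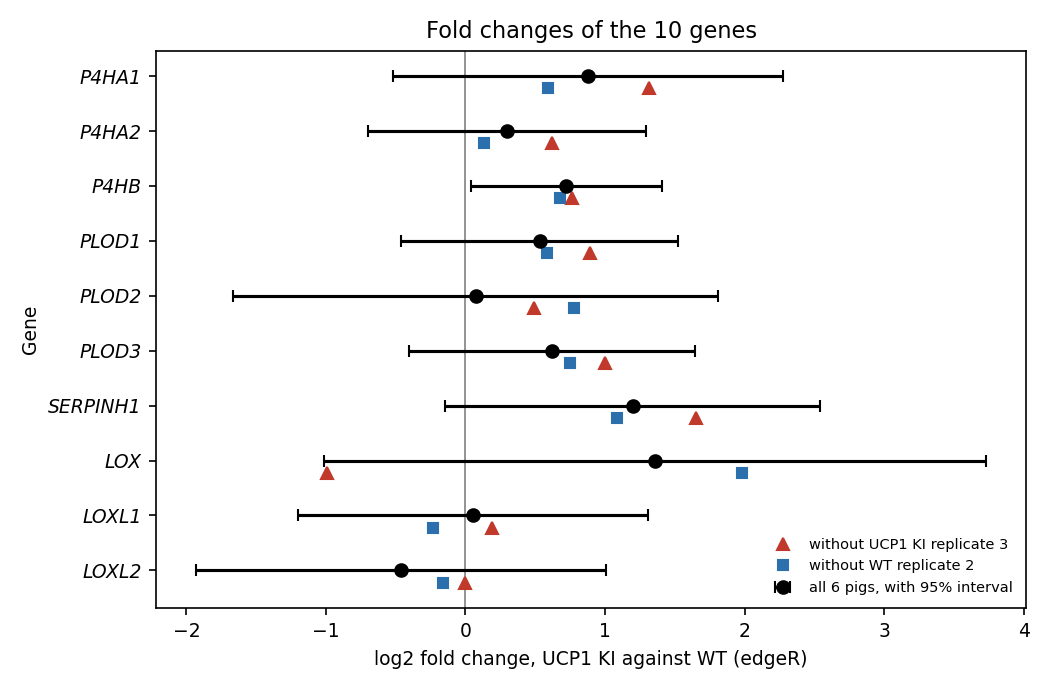
Log2 fold change of each gene, UCP1 KI against WT, from edgeR, with all 6 pigs (black, bars give the 95% interval), without UCP1 KI replicate 3 (red) and without WT replicate 2 (blue). The interval excludes 0 for *P4HB* only, and leaving out UCP1 KI replicate 3 moves *SERPINH1* from 1.20 to 1.65 and *LOX* from 1.36 to -0.99.

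UCP1 KI replicate 3 thus stood apart from the other UCP1 KI pigs for most of these genes. It was the lowest of the UCP1 KI pigs for 8 of the 10 genes, where it was the lowest for 34.3% of all genes tested, and it was the highest for *LOX*. Without it, 4 of the 10 genes passed both limits, all higher, where 8.33% of all genes tested did so in either direction in that fit. These were *SERPINH1*, *P4HA1*, *PLOD1* and *PLOD3*, while *P4HB* missed the p limit (unadjusted edgeR p of 0.0581). Without it, the groups did not overlap for 6 of the 10 genes, with *P4HB* joining the 4 as higher and *LOX* as lower, where 27.9% of all genes tested did not overlap. Read against the share of all genes tested that were called in the same fit, the counts of the 10 genes were as follows. Without UCP1 KI replicates 1 and 2 in turn, 1 and 0 were called, where 6.74% and 4.92% of all genes were. Without WT replicates 1, 2 and 3 in turn, 1, 0 and 1 were called, where 7.84%, 5.19% and 11.1% of all genes were. The gene called without WT replicate 1 was *LOXL1*, and the other calls were *P4HB*. With all 6 pigs, *P4HB* and *SERPINH1* were called by DESeq2 on the same genes (background 9.77%), DESeq2 on all genes with any count (6.92%), edgeR on all genes with any count (6.78%) and edgeR with library size only (8.39%). *P4HB* alone was called with median-of-ratios factors (8.3%), with at least 10 counts in every pig (8.47%) and in the blocked fit (8.31%), which used the replicate number. The library of UCP1 KI replicate 3 was of ordinary depth, 32281278 counts, with a TMM factor of 1.17, close to that of UCP1 KI replicate 2. Among the WT pigs, WT replicate 3 was the lowest for 6 of the 10 genes, where it was the lowest for 35.1% of all genes tested.

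The 10 genes varied widely within groups. The SD within groups of log2(CPM + 1), pooled over both, ran from 0.36 for *P4HB* to 1.38 for *LOX*, where the median over all genes tested was 0.33. *P4HB* was near the middle of all genes, with 56.5% of them less variable. For *SERPINH1*, *P4HA1*, *PLOD2*, *LOX* and *LOXL2* between 95.3% and 98.7% of the genes tested were less variable. When TMM factors were left out and libraries were scaled by size alone, the median of all genes moved up by 0.26 on the log2 scale. The direction of all 10 genes was the same under it, and *SERPINH1* then passed both limits (1.39, unadjusted edgeR p of 0.0333).

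To compare genes of like role, 4 ratios within each pig were tested. *P4HA1* over *P4HA2* was 0.501, 0.773 and 0.314 in UCP1 KI replicates 1 to 3 and 0.593, 0.265 and 0.256 in WT replicates 1 to 3. *SERPINH1* over *P4HB* was 5.17, 3.22 and 0.799 in UCP1 KI replicates 1 to 3 and 3.55, 1.92 and 1.501 in WT replicates 1 to 3. *LOX* over *LOXL2* was 11.6 in UCP1 KI replicate 3 and between 0.122 and 0.378 in the other 5 pigs. The size of such a ratio depends on the lengths of both transcripts, so that only its change between pigs can be read. The groups overlapped for all 4 ratios, *PLOD2* over *PLOD1* included, with exact two-sided permutation p values of 0.3 to 1 and adjusted p values of 1 over the 4 ratios. The mean log2 ratio differed by 0.53 for *P4HA1* over *P4HA2*, -0.42 for *PLOD2* over *PLOD1*, 1.16 for *LOX* over *LOXL2* and 0.13 for *SERPINH1* over *P4HB*, UCP1 KI minus WT. Without UCP1 KI replicate 3 the ratio of *LOX* to *LOXL2* did not overlap, being lower in UCP1 KI pigs, and without WT replicate 1 that of *P4HA1* to *P4HA2* did not, being higher.

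Type I collagen, the main substrate of these enzymes, was lower in UCP1 KI muscle. *COL1A1*, a chain of type I collagen, was at 43.9, 29.5 and 35.8 CPM in UCP1 KI replicates 1 to 3 and at 115, 179.6 and 100.9 CPM in WT replicates 1 to 3. *COL1A2*, its partner chain, was at 79.1, 36.6 and 67.7 CPM against 169.6, 260.5 and 163.9 CPM. The groups stood well apart for both, with log2 fold changes of -1.86 for *COL1A1* (standard error 0.31) and -1.70 for *COL1A2* (standard error 0.36) and unadjusted edgeR p values of 0.000361 and 0.00169. Their adjusted p values from edgeR were 0.28 and 0.46. UCP1 KI replicate 3, the pig with the least *SERPINH1*, was not the pig with the least type I collagen, which was UCP1 KI replicate 2.

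Each enzyme was therefore set against *COL1A1* plus *COL1A2* in the same pig. The size of such a percentage depends on the lengths of the transcripts, and only its change between pigs is read. *SERPINH1* came to 254%, 461.6% and 55.1% of the type I collagen CPM in UCP1 KI replicates 1 to 3, against 42.8%, 18.7% and 33.9% in WT replicates 1 to 3. *P4HB* came to 49.1%, 143% and 68.9%, against 12.1%, 9.75% and 22.6%. On this scale every UCP1 KI pig was above every WT pig for *SERPINH1*, *P4HB*, *P4HA2*, *PLOD1*, *PLOD3* and *LOXL1*, each with an exact two-sided permutation p of 0.1. That is 6 of 10 genes, where 77.5% of all genes tested were higher without overlap on the same scale, and 77.6% were without overlap in either direction. The share of the 10 genes was thus below the background, and nothing about the enzymes is read from it. The groups overlapped for *P4HA1*, *PLOD2*, *LOX* and *LOXL2*, with exact p values of 0.2 to 0.4. The mean log2 ratio differed by 1.02 for *LOXL2* to 2.63 for *SERPINH1*, UCP1 KI minus WT.

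Other genes of the pathway were taken from lists written by role. Of 20 further genes of collagen modification and folding, 17 could be tested, 8 with a higher and 9 with a lower point estimate, and their median log2 fold change was -0.11, or 0.12 with library size only. Without WT replicate 1 the median turned to 0.17, and without WT replicate 2 it was -0.21. Past both limits were 2 of 17, both higher, where 3.84% of all genes tested were called higher and 8.19% in either direction. The genes of all the lists named here as past both limits had adjusted p values of 0.28 to 0.606 from edgeR. *FKBP14*, an ER prolyl isomerase, was at 3.36, 4.38 and 1.72 CPM in UCP1 KI replicates 1 to 3 and at 1.57, 1.68 and 1.33 CPM in WT replicates 1 to 3, a log2 fold change of 1.04 (unadjusted edgeR p of 0.0392). *LOXL4*, a further lysyl oxidase, was at 13.2, 17.1 and 1.51 CPM against 2.84, 1.83 and 1.77 CPM, a log2 fold change of 2.30 (unadjusted edgeR p of 0.0178). *LOXL4* thus had the *SERPINH1* order, with UCP1 KI replicate 3 below every WT pig, while *FKBP14* did not overlap between the groups. With 1 pig left out, *FKBP14* stayed past the limits in the fit without UCP1 KI replicate 3 and in none of the other 5, and *LOXL4* was lost when UCP1 KI replicate 2 or 1 of WT replicates 2 and 3 was left out.

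The list also holds the *P3H* prolyl hydroxylases, which modify another carbon of the proline ring. *P3H2* was at 9.80, 9.45 and 10.3 CPM in UCP1 KI replicates 1 to 3 and at 11.3, 14.8 and 16.1 CPM in WT replicates 1 to 3, a log2 fold change of -0.51. *P3H3* was at 4.27, 3.23 and 5.85 CPM against 7.91, 6.61 and 6.51 CPM, a log2 fold change of -0.66. Neither overlapped between the groups, all UCP1 KI values being the lower ones, but both missed the p limit, with unadjusted edgeR p values of 0.0667 and 0.0636. They are named here, beyond the rule for naming genes, because their values were seen to lie apart. Without overlap in this list were 1 gene higher and 2 lower of 17, where 15.3% of all genes tested were without overlap in either direction. *P3H2* was called lower without WT replicate 1 and *P3H3* without UCP1 KI replicate 3. The lowest log2 fold change of the list was that of *FKBP10*, -0.92 (unadjusted edgeR p of 0.0856). *FKBP10* was called lower without UCP1 KI replicate 1, without WT replicate 3 and in the blocked fit. *P3H4* was called lower without UCP1 KI replicate 1.

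Of 8 genes for procollagen proteinases and their enhancers, 7 could be tested and 5 had a lower point estimate, with a median log2 fold change of -0.42. This median was -0.11 with library size only, and it ran from -1.24 without UCP1 KI replicate 1 to -0.15 without WT replicate 2. *ADAMTS2*, which removes the amino-terminal propeptide, was the 1 gene of 7 past both limits, where 4.34% of all genes tested were called lower. It was at 2.49, 2.13 and 2.44 CPM in UCP1 KI replicates 1 to 3 and at 8.05, 6.13 and 2.07 CPM in WT replicates 1 to 3. Its log2 fold change was -1.20 (unadjusted edgeR p of 0.0391), with WT replicate 3 below every UCP1 KI pig. *ADAMTS2* stayed past the limits with 1 pig left out in the fit without WT replicate 3, and in none of the other 5, and it was lost with library size only. *PCOLCE*, an enhancer of the proteinase that removes the carboxy-terminal propeptide, was at 45.8, 9.70 and 28.2 CPM in UCP1 KI replicates 1 to 3 and at 64.7, 71.3 and 48.55 CPM in WT replicates 1 to 3. Its groups did not overlap, and its log2 fold change of -1.14 missed the p limit in edgeR (unadjusted p of 0.0555). It was called lower by both DESeq2 fits, and in edgeR on all genes with any count, in the blocked fit and without UCP1 KI replicate 1.

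Of 8 fibrillar collagen genes, 7 had a lower point estimate and 5 passed both limits, all lower, where 4.34% of all genes tested were called lower. Beside type I collagen these were *COL3A1* (-1.57), *COL5A1* (-0.87) and *COL5A3* (-0.90), with unadjusted edgeR p values of 0.0158, 0.0190 and 0.00598, and each of the 5 was without overlap. Between 3 and 5 of the 8 were called in each of the other fits, with the lowest number under library size only. All 7 tested genes of the basement membrane, microfibrillar and fibril-associated collagens had a lower point estimate. Of these, *COL6A1* (-0.78, unadjusted edgeR p of 0.0314) and *COL18A1* (-1.15, unadjusted edgeR p of 0.0180) passed both limits, where 4.34% of all genes tested were called lower. Both lost their call when UCP1 KI replicate 2 or 3, or WT replicate 1 or 2, was left out, and *COL6A1* also with library size only. *COL6A3* was called in their place without UCP1 KI replicate 2. That collagens were lower in these pigs was known when the lists were written, so their counts are no independent evidence of a direction.

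**Figure D3:**
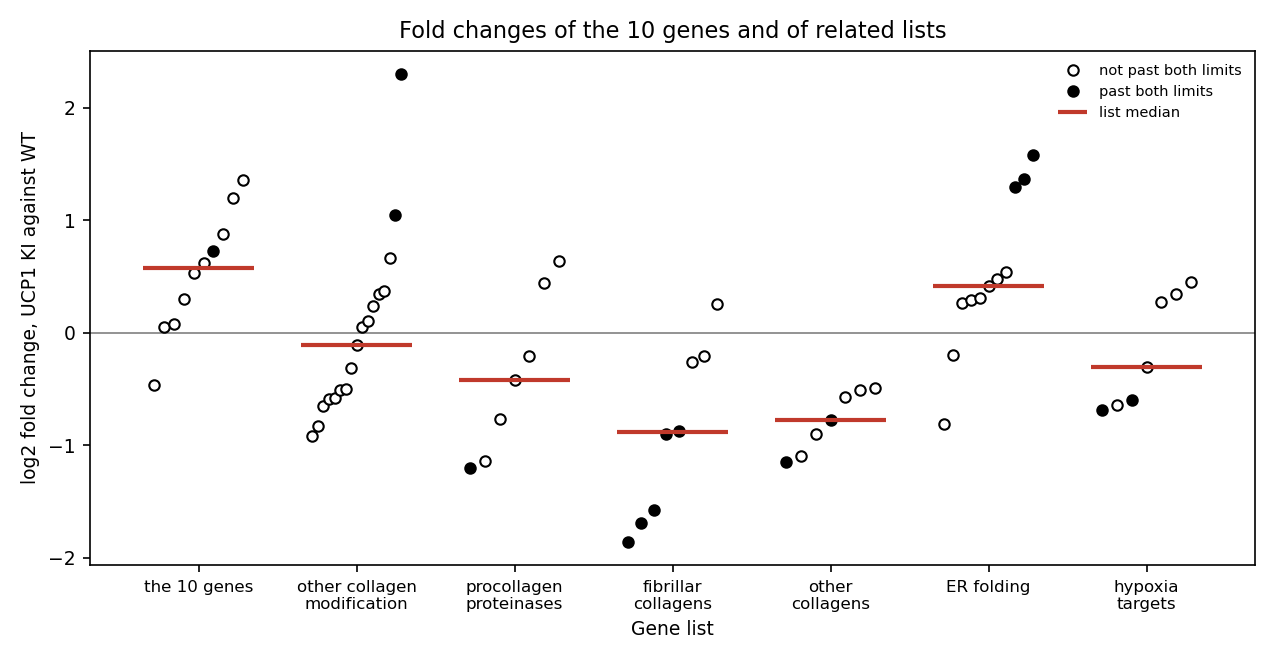
Log2 fold change, UCP1 KI against WT, of each tested gene of the 10 and of 6 related lists, filled where the gene passed both limits, with a red bar at the median of the list. The medians are 0.58 for the 10 genes and 0.41 for ER folding, and -0.89 for fibrillar and -0.78 for other collagens.

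*P4HB* shares its place and its disulfide chemistry with the general folding genes of the ER. Of 11 such genes tested, 9 had a higher point estimate and 3 passed both limits, all higher, with a median log2 fold change of 0.41. Of all genes tested, 48.7% had a higher point estimate and 3.84% were called higher. This median was 0.23 without UCP1 KI replicate 2, 0.66 without UCP1 KI replicate 3, and 0.69 with library size only. In each of the latter pair of fits 5 were called, where 8.33% and 8.39% of all genes tested were called in either direction. *HSPA5*, the main ER chaperone of its heat shock family, was at 244, 375 and 104 CPM in UCP1 KI replicates 1 to 3 and at 79.9, 69.3 and 92.9 CPM in WT replicates 1 to 3, a log2 fold change of 1.58 (unadjusted edgeR p of 0.00834). *HSP90B1*, its partner of another heat shock family, was at 161, 363 and 73.6 CPM against 89.9, 67.5 and 86.3 CPM, a log2 fold change of 1.29 (unadjusted edgeR p of 0.0414). *PDIA4*, a relative of *P4HB*, was at 96.6, 195.9 and 51.8 CPM against 48.7, 39.7 and 44.9 CPM, a log2 fold change of 1.37 (unadjusted edgeR p of 0.0177). For all 3 genes UCP1 KI replicates 1 and 2 were above every WT pig. UCP1 KI replicate 3 lay just above the WT pigs for *HSPA5* and *PDIA4* and within their range for *HSP90B1*. With replicate 2 of either group left out, *HSPA5* was the 1 gene of the list past the limits, where 4.92% (UCP1 KI) and 5.19% (WT) of all genes were called. *HSP90B1* kept its call without UCP1 KI replicate 3 and in none of the other 5 with a pig left out.

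Some of the 10 genes, among them *P4HA1*, *P4HA2*, *PLOD2* and *LOX*, are known targets of hypoxia-inducible factors, so targets outside the collagen pathway were read beside them. Of 10 such targets, 7 could be tested, 3 with a higher and 4 with a lower point estimate. *ANKRD37* and *KDM3A*, a histone demethylase gene, passed both limits, and both were lower, where 4.34% of all genes tested were called lower, with log2 fold changes of -0.68 and -0.60 and unadjusted edgeR p values of 0.0482 and 0.0412. In edgeR, 0 of the 7 were past the limits with library size only and with all genes that had any count. The number was also 0 without UCP1 KI replicate 1 or 2 or WT replicate 2, and by DESeq2 on all genes with any count. Without UCP1 KI replicate 3, *PDK1* was called higher and *KDM3A* lower, where 8.33% of all genes tested were called in either direction.

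**Figure D4:**
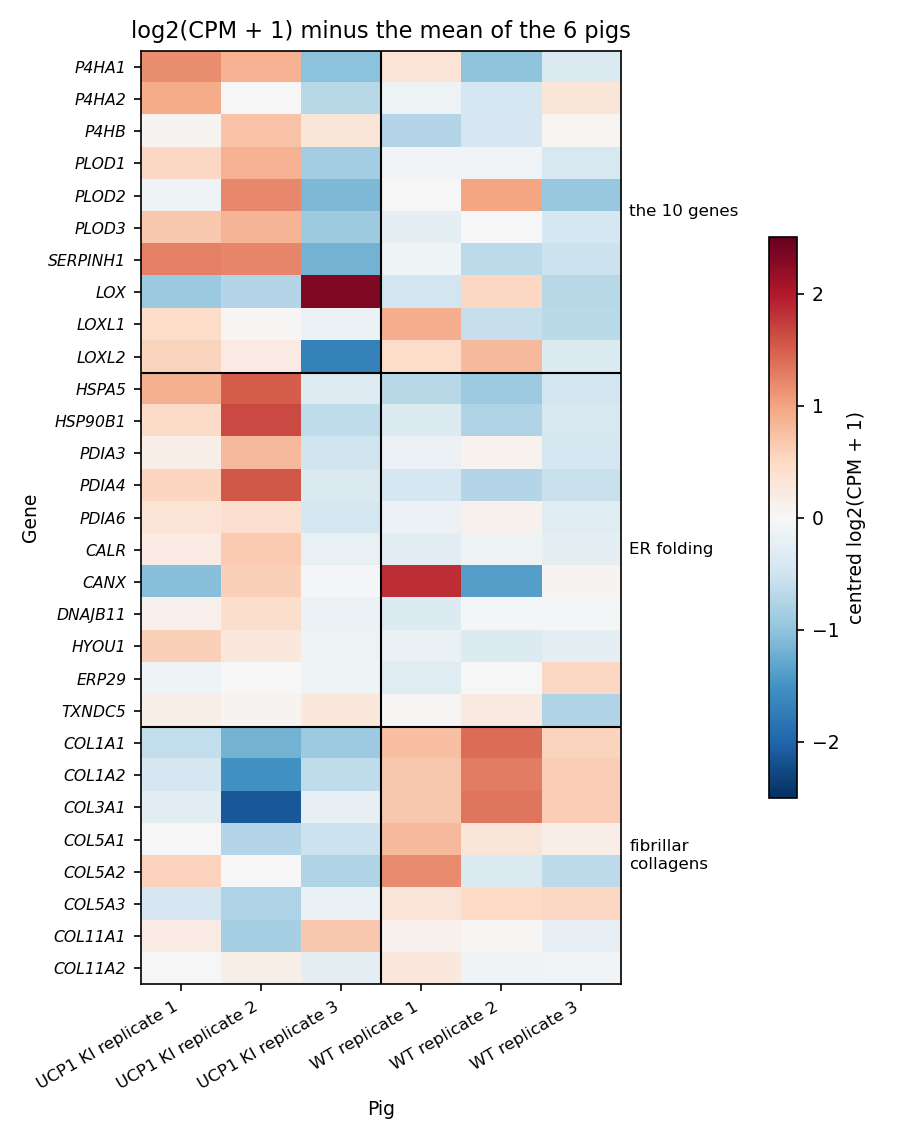
Level of the 10 genes, of the ER folding genes and of the fibrillar collagens in each pig, as log2(CPM + 1) minus the mean of that gene over the 6 pigs, blue below and red above that mean. UCP1 KI replicates 1 and 2 are red for *SERPINH1*, *HSPA5* and *PDIA4* and UCP1 KI replicate 3 is blue for them, while type I collagen is blue in all 3 UCP1 KI pigs.

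The genes whose pattern over the 6 pigs was most like that of *SERPINH1* were sought among 7594 tested genes with a symbol and a mean of at least 5 CPM. Likeness was the root mean square difference between log2(CPM + 1) profiles, each centred on its own mean. The 5 nearest genes were *ABHD3*, *CRYAB*, *HSPB1*, *P4HA1* and *SYNPO2*, at differences of 0.25 to 0.32. *CRYAB* and *HSPB1* encode small heat shock proteins that are abundant in muscle fibres, and *SYNPO2* encodes a Z-disc protein. *CRYAB* was at 8326, 9789 and 2111 CPM in UCP1 KI replicates 1 to 3 and at 4933, 2731 and 4323 CPM in WT replicates 1 to 3. *HSPB1* was at 6664, 8096 and 2171 CPM against 3592, 2188 and 3373 CPM. They were chosen for having the pig order of *SERPINH1*, so that this order is no further observation. Among the 10 genes, *P4HA1* ranked 4, *PLOD3* ranked 17 and *PLOD1* ranked 19 by this measure, whereas *P4HB* ranked 1601, *PLOD2* 1738 and *LOX* 7551.

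Markers of the cells that the muscle could hold were read in the same libraries, and their counts are to be read against the 3.84% of all genes tested called higher and the 4.34% called lower. Of 10 fibroblast markers other than collagens, 8 could be tested, 6 of them with a lower point estimate, and *LUM* (-0.57) and *FAP* (-0.91) passed both limits. Neither did with library size only, in the blocked fit, or when replicate 1 or 2 of either group was left out. The summed level of the list was 188.4 to 189.6 CPM in UCP1 KI pigs and 189.6 to 277.9 CPM in WT pigs, with *DCN*, decorin, the most abundant at 80.1 to 134.4 CPM over the 6 pigs. Single markers differed between UCP1 KI pigs, and not all in the same order. *PI16* was at 20.1, 26.5 and 10.65 CPM in UCP1 KI replicates 1 to 3 and at 42.2, 18.8 and 11.75 CPM in WT replicates 1 to 3. *DCN* and *FAP* were highest in UCP1 KI replicate 3 among the UCP1 KI pigs, at 109.6 and 4.87 CPM. All 6 smooth muscle and pericyte markers had a lower point estimate, and 0 passed both limits or had an unadjusted edgeR p under 0.05 (their log2 fold changes ran from -0.48 for *RGS5* to -1.32 for *MYH11*). Of these, *PDGFRB* was called lower by DESeq2 on the same genes, *MYH11* by DESeq2 on all genes with any count, *ACTA2* and *PDGFRB* in the blocked fit, and *ACTA2*, *MYH11*, *CNN1* and *PDGFRB* without WT replicate 3. Their sum was 326 to 480 CPM in UCP1 KI pigs and 426 to 932 CPM in WT pigs. Their median log2 fold change of -0.84 was -0.35 without WT replicate 2, and 1 of the 6 turned higher without WT replicate 1. *MYH11* and *CNN1* were highest in WT replicate 2, at 105.7 and 73.4 CPM. In the other pigs they were at most 38.1 and 25.3 CPM. Of 6 tendon genes, 2 could be tested. *FMOD* was past both limits (-1.46, unadjusted edgeR p of 0.0256), while *THBS4* had a higher point estimate (0.24). The sum, most of it *THBS4*, was 25.7 to 82.0 CPM in UCP1 KI pigs and 20.6 to 100.9 CPM in WT pigs. *TNMD*, *SCX* and *MKX* were at 1.57 CPM or less in every pig. *MKX* had means of 0.16 CPM in UCP1 KI and 0.84 CPM in WT pigs. Both tools called it lower on all genes with any count. So did edgeR without UCP1 KI replicate 2 or 3 or WT replicate 3. *FMOD* lost its call when UCP1 KI replicate 2 or 3, or WT replicate 1 or 2, was left out.

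The summed endothelial markers were 295 to 529 CPM in UCP1 KI pigs and 272 to 501 CPM in WT pigs. Of 5 tested, 4 had a higher and 1 a lower point estimate, with a median log2 fold change of 0.04. *TEK*, an angiopoietin receptor gene, was past both limits (1.20, unadjusted edgeR p of 0.00123). *ROBO4* was the lower one, at -0.53, and was called lower without WT replicate 3. All 7 leukocyte genes had a higher point estimate, with a median log2 fold change of 0.50, and the median was 0.03 without UCP1 KI replicate 2. Their summed level was 95.3 to 171 CPM in UCP1 KI pigs and 97.0 to 139 CPM in WT pigs. Most of it was *CD79A*, a B cell gene, whose log2 fold change was 0.02, so that the sum says little about the other leukocyte genes. The T cell genes *CD3E* (1.84, unadjusted edgeR p of 0.0297) and *CD2* (2.498, unadjusted edgeR p of 0.0148) passed both limits. Both lost their call when UCP1 KI replicate 2 or WT replicate 3 was left out, and *CD3E* also in the blocked fit and without WT replicate 1 or 2. *CD2* was at 3.46, 8.19 and 0.715 CPM in UCP1 KI replicates 1 to 3 and at 0.910, 0.730 and 0.534 CPM in WT replicates 1 to 3, so that it too was highest in the pair of pigs with the most *SERPINH1*. Of 5 adipocyte markers tested, 4 had a lower point estimate, with a median log2 fold change of -1.13 that was -0.03 without WT replicate 2. They summed to 134 to 161 CPM in UCP1 KI pigs and 99.9 to 315 CPM in WT pigs, the highest being WT replicate 2, and 0 of 5 passed both limits or had an unadjusted edgeR p under 0.05 (*PLIN4* was at 0.49 and *ADIPOQ* at -1.26). *ADIPOQ* and *FABP4* were called lower without WT replicate 1, *FABP4* lower in the blocked fit, and *PLIN4* higher without WT replicate 3. No marker list held a gene at 0 in all pigs. The part of these cells in the levels of the 10 genes was not tested.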

How the data were processed

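RNA was sequenced from longissimus dorsi of 3 UCP1 KI and 3 WT pigs, 1 library per pig. The authors deposited raw read counts per Ensembl pig gene. The submitters' processing notes name FastQC 0.11.2, Trimmomatic 0.36, HISAT2 2.0, bedtools 2.26.0, StringTie 1.3.3b, DESeq2 1.12.4 and the build Sscrofa11.1. The program that counted reads, its strand setting and the annotation release are not given in the sources used here. Symbols were matched for 14864 of 30476 gene identifiers.

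Genes that passed filterByExpr were tested with edgeR 4.0.16 in R 4.3.3 by the quasi-likelihood test with TMM factors, UCP1 KI against WT with no covariate, and p values were adjusted by the Benjamini-Hochberg method over all genes tested. The limits, a log2 fold change beyond 0.5 in either direction and a p under 0.05 before adjustment, follow the methods of the study. Standard errors were computed from the log2 fold change and F. Single values were compared by exact two-sided permutation of the pigs, on log2(CPM + 1) with a pseudocount of 1. The libraries held 30220951 to 35066624 counts, at which 3 counts equal 0.0795 to 0.110 CPM, a floor that covers counting error only. The procedure was tested on simulated data.

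The 10 genes and the lists were chosen with earlier results of these data known. Named are all 10 genes, *COL1A1* and *COL1A2*, in each other list the genes past both limits or otherwise those with the highest and the lowest log2 fold change, and the 5 genes with profiles nearest to that of *SERPINH1*. Named outside this rule were *P3H2* and *P3H3*, the marker genes *DCN*, *PI16*, *CD79A* and *THBS4*, and the overlapping neighbours. So were the genes called only in an alternative. The alternatives were DESeq2 1.42.0, other scalings and filters, other call rules, a block for the replicate number, and leaving out each pig. Transcript lengths were not used here, so ratios between genes carry the lengths of both and only their change between pigs is read, and no sequence or promoter motif was analysed here.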

Additional observations from a re-analysis of the deposited data

How the results depend on the processing

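Of the 10 genes, 1 passed both limits. DESeq2 on the same genes, DESeq2 on all genes with any count, edgeR with library size only and edgeR on all genes with any count each gave 2, *P4HB* and *SERPINH1*. An adjusted p under 0.05 gave 0 of the 10 in edgeR and 0 of all 13402 genes tested, where 1 of the 10 and 1100 of all genes had an unadjusted p under 0.05. Leaving out 1 pig gave 0 to 4, with 0 without UCP1 KI replicate 2 or WT replicate 2 and 4 without UCP1 KI replicate 3. The median log2 fold change of the 10 genes was 0.36 to 0.69 with a pig left out, and 0.82 with library size only. With a pig left out, 1 to 6 of the 10 genes were without overlap, where 21.3% to 32.4% of all genes tested were (27.9% for the 6, without UCP1 KI replicate 3, and 26.9% for 2, without WT replicate 1). Relative to type I collagen 6 to 9 were, where 79.3% to 85.3% of all genes were (85% for the 9, without UCP1 KI replicate 3). Relative to all fibrillar collagens 4 of the 10 and 69% of all genes were without overlap. Ratios without overlap numbered 0 to 1. Of 57 genes tested in the 6 related lists 15 passed both limits, where 8.19% of all genes did, and 5 to 14 did with a pig left out, where 4.92% to 11.1% of all genes did, the fewest without WT replicate 2 (5) and UCP1 KI replicate 2 (6).

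With a pig left out, the direction turned for *P4HA2* (-0.25 to 0.62, lower without UCP1 KI replicate 1), *LOX* (-0.99 to 1.98, lower without UCP1 KI replicate 3), *PLOD2* (-0.90 to 0.78) and *LOXL1* (-0.26 to 0.95). *PLOD2* was at -0.90 without UCP1 KI replicate 2, -0.05 without WT replicate 1 and -0.32 without WT replicate 3. *LOXL1* was at -0.17 without UCP1 KI replicate 1, -0.23 without WT replicate 2 and -0.26 without WT replicate 3. The cause was not tested.

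With the replicate number as a block, 1 of the 10 genes and 15 of the related genes passed both limits. The median of the 10 was 0.33, *PLOD2* was at -0.058, and *LOX* fell from 1.36 to 0.21. Of the related genes, *FKBP14*, *ADAMTS2*, *HSP90B1* and *ANKRD37* lost their calls under the block and *FKBP10*, *PCOLCE*, *COL6A3* and *ADM* gained one. Deviations of same-numbered pigs from their group means correlated at 0.004, 0.094 and 0.283 over 13402 genes, and 2 of 6 libraries correlated best with their own number, so that the numbers were not taken as pairs. With 3 pigs a group, the 95% intervals of 9 of the 10 genes held 0, and differences inside them were not detectable.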
